A study of Ovis aries with 6 samples.

Results

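Heat shock proteins and co-chaperones were taken from the gene table of sheep longissimus muscle by their symbols. The rule matched the HSPA, HSPB, HSPD, HSPE, HSPH and HSP90A families, the J-domain proteins of the DNAJA, DNAJB and DNAJC classes, the numbered BAG proteins, the CCT subunits, and TCP1, HSF1, HSF2 and CRYAB. It found 85 of the 23144 genes in the table, and 77 of them had enough reads to be tested. HSPBAP1, which encodes a protein that binds HSPB1, was matched by its first letters and was kept as a class of its own, while HSP90B1 and TRAP1 were not matched and were read with the other chaperone genes. The 6 animals, each with its own library, were females at an age of 1 year, and 3 were Small Tail Han (STH) and 3 Qianhua Mutton Merino (QHMM) sheep. QHMM was bred for mutton and wool from South African Mutton Merino males and Northeast Fine-wool females, and STH is a traditional local breed. All animals were kept under the same conditions and the study describes no treatment, so breed was the contrast, and 3 animals stood for each breed. In the study, live weight was measured after fasting and before slaughter.

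Chaperones hold unfolded proteins and help them reach their folded shape. HSPA proteins (the HSP70 family) bind short exposed stretches in a cycle of ATP binding and hydrolysis. J-domain proteins bring clients to them and start the hydrolysis, while HSPH1 and the BAG proteins help to release the nucleotide. HSP90 acts on nearly folded clients, the ring-shaped TRiC complex folds actin and tubulin, and small heat shock proteins hold damaged proteins without using ATP. In skeletal muscle the small proteins CRYAB, HSPB1, HSPB7 and HSPB8 bind to the sarcomere, and BAG3 with HSPB8 and HSPA8 removes damaged filament proteins there. Heat shock factors are the transcription factors that switch on the inducible members after stress.

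Each library held between 10982191 and 14334544 reads on genes. Counts were scaled by the TMM factors of edgeR to a common library size and are given below as normalised counts, in the order of replicates 1, 2 and 3, and levels of different genes were compared as RPKM (reads per length of the gene and per total of the library). A gene was called up- or down-regulated in STH vs. QHMM when its false discovery rate (FDR) did not reach 0.05 and it moved by more than 0.585 on the log2 scale. Of 10 muscle markers 7 were listed in the table, with summed RPKM between 67693 and 109104 in the 6 libraries, but TNNT3, a fast troponin, was at or under 3 counts in each library. A list of 8 slow fibre genes had 4 down-regulated members in STH and a summed RPKM of 21061, 16587 and 23957 in QHMM against 8042, 11283 and 7319 in STH. Of 6 adipocyte markers 4 were down-regulated in STH, with summed RPKM of 397.4, 84.94 and 151.1 in QHMM and 159.6, 83.70 and 50.19 in STH. Of the markers of fast fibres, blood, endothelium and fibroblasts, 0 were called by edgeR, and 8, 3, 3 and 4 were tested. Of these, 2, 0, 0 and 1 had an unadjusted p below 0.05, and DESeq2 called 1, 0, 0 and 1.

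Of the 77 tested members, 4 were called, and 73 did not pass the test. HSF2, HSPBAP1 and DNAJC1 were up-regulated in STH and HSPB3 was down-regulated. This was 5.19% of the members, beside 3.45% of all 12506 genes tested. The 3 up-regulated members made 3.90%, beside 1.62% of all genes, and the 1 down-regulated member made 1.30%, beside 1.83%. Counts this small lie near the background of the table. Each breed kept to its own range of normalised counts for 23 members (29.9%), beside 24.7% of all genes. STH was the higher breed for 16 of these, or 20.8% of the members beside 13.0% of all genes, and the lower breed for 7, or 9.09% beside 11.7%. An unadjusted p below 0.05 was found for 25 members (32.5%), beside 19.2% of all genes. The log2 fold change was positive for 45 members (58.4%), beside 51.8% of all genes, and its median was 0.10 for the members and 0.02 for all genes. With 3 animals against 3, an exact two-sided permutation test of a single gene cannot give a p below 0.10, so these calls rest on the spread that edgeR shares across genes. With DESeq2, 12 members were called, 11 up and 1 down, which was 15.4% of those tested, beside 6.85% of all genes. Without QHMM 1, QHMM 2 or QHMM 3, 0 members were called, while the calls over all genes were 131, 208 and 150 in place of 432. Without STH 1, STH 2 or STH 3 there were 5, 3 and 3 called members, while the calls over all genes numbered 535, 183 and 329.

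**Figure D1:**
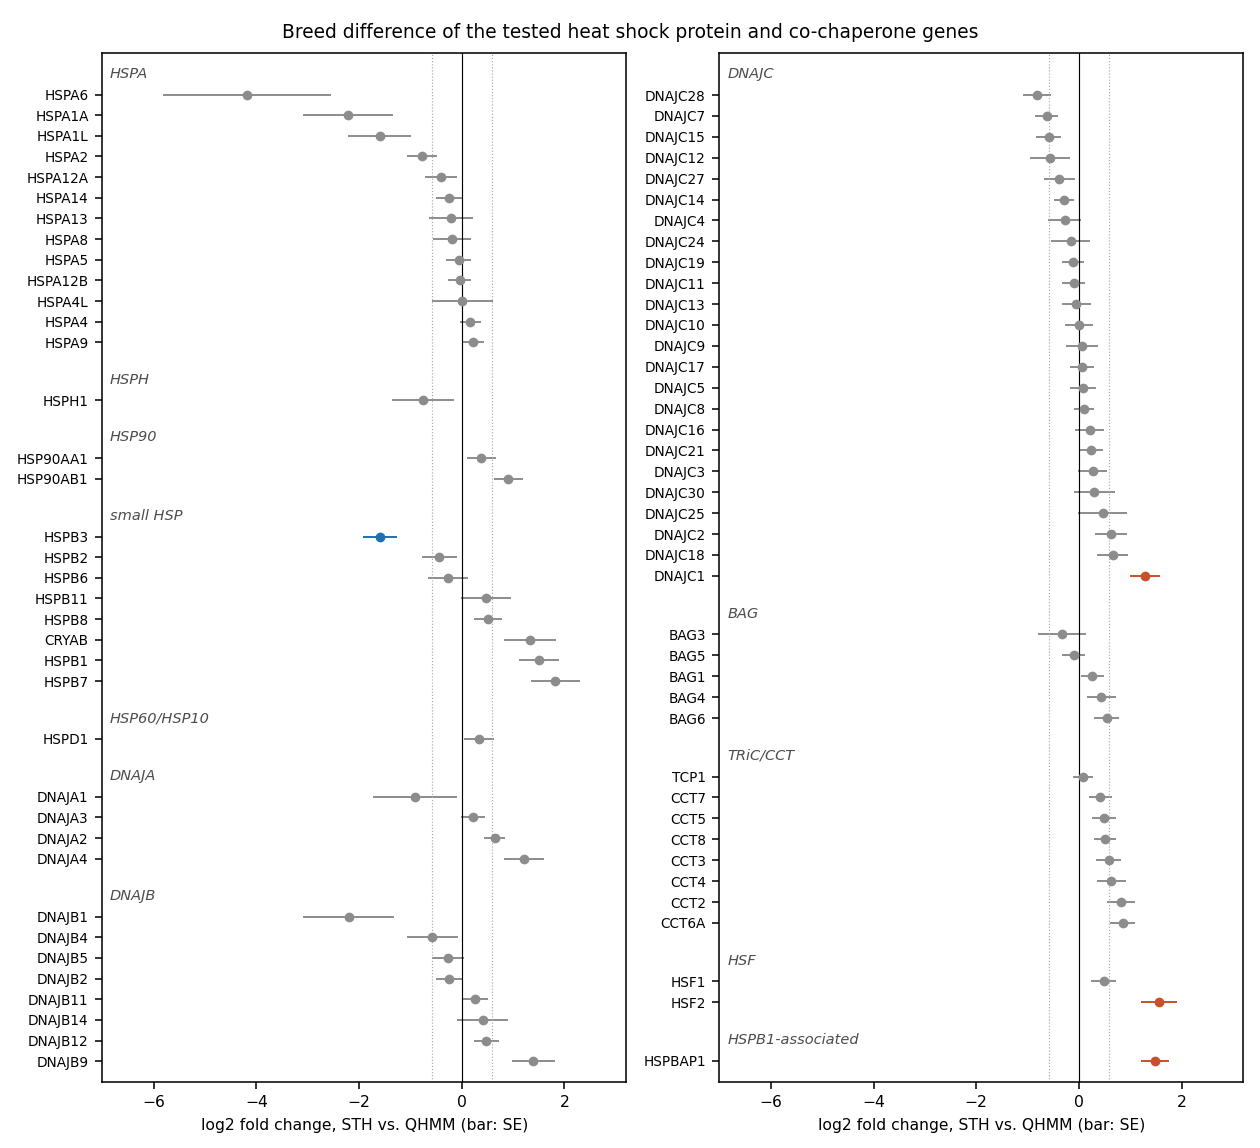
Log2 fold change of STH vs. QHMM (x axis) of the 77 tested members, by class, with bars of 1 standard error. Red points are up-regulated, blue points are down-regulated, grey points were not called, and the dotted lines mark a change of 1.5-fold. The 8 TRiC subunits all lie right of 0, while HSPA6, HSPA1A and DNAJB1 lie far to the left with long bars.

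HSF2 is a heat shock factor that takes part in development and in the stress response. It had 69.1, 76.7 and 77.6 normalised counts in QHMM and 115.5, 313.8 and 231.2 in STH. All STH animals were above all QHMM animals, and the STH animals differed more among themselves. This up-regulation reached 1.56 on the log2 scale (SE 0.35, FDR 0.0397). Without STH 1, its lowest STH library, the log2 fold change was 1.86 (FDR 0.00676). When any 1 of the other libraries was left out it was between 1.20 and 1.59, and HSF2 was not called. It was also not called with RPKM values in place of counts. HSF1, the main factor of the heat shock response, had 697.1, 1005 and 878.4 normalised counts in QHMM and 968.7, 1077 and 1545 in STH. The breeds overlapped, and the log2 fold change of 0.48 (SE 0.25) did not pass the test (FDR 0.326). HSF1 had the higher level of both factors, with an RPKM of 52.7 ± 12.1 (SD, n = 6) against 4.89 ± 3.56 for HSF2. The ratio of HSF2 to HSF1 in RPKM was 0.0629, 0.0484 and 0.0560 in QHMM and 0.0756, 0.185 and 0.0949 in STH, so the breeds did not overlap in it.

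HSPBAP1 binds HSPB1 and belongs to the JmjC-domain proteins. It gave the smallest FDR of the members. It had 51.4, 48.8 and 50.4 normalised counts in QHMM and 110.5, 179.2 and 132.3 in STH, so the QHMM animals were nearly equal and every STH animal was more than 2 times as high. HSPBAP1 was up-regulated by 1.48 on the log2 scale (SE 0.27, FDR 0.0193). It stayed between 1.25 and 1.62 with each library left out in turn, and the call was kept without STH 1 or STH 3 only. The highest RPKM of HSPBAP1 was 7.99, in STH 2, so this was a transcript of low level.

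HSPB1 itself, the partner of HSPBAP1 and a small heat shock protein that binds actin filaments and the sarcomere, was not called. In normalised counts, HSPB1 had 11889, 6591 and 6690 in QHMM and 18476, 15071 and 38254 in STH. The breeds did not overlap, and STH 3 was 2.07 times the next library. The log2 fold change was 1.51 (SE 0.39, FDR 0.0641), and the FDR was 0.126 without STH 3. HSPB1 passed the test in 4 of the 19 alternative settings, with FDR between 9.92e-04 and 0.299 over all of them.

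**Figure D2:**
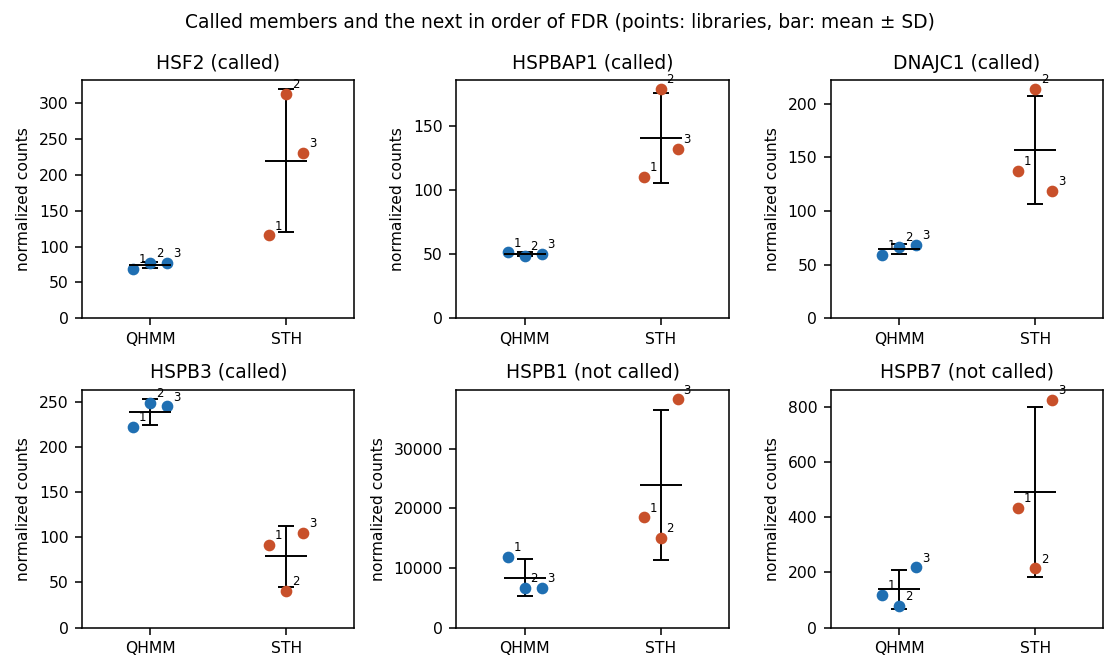
Normalised counts (y axis, from 0) of the 4 called members and of HSPB1 and HSPB7, the next in order of FDR, in QHMM (blue) and STH (red), with the replicate number beside each point and bars of the mean ± SD (n = 3). The QHMM points of HSF2, HSPBAP1, DNAJC1 and HSPB3 lie close together and apart from those of STH, while those of HSPB7 overlap with STH.

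The small heat shock proteins held the 2 members of the highest level, and their differences between the breeds did not share a direction. Of 8 tested, 5 had a positive and 3 a negative log2 fold change, with a median of 0.49, and HSPB3 was the only one called. An unadjusted p below 0.05 was found for 4 of them, where 19.2% of all genes were below it. DESeq2 also took in HSPB9, which had too few reads for the main test. It called 5 of 9, beside 6.85% of all genes, with CRYAB, HSPB1, HSPB7 and HSPB9 up and HSPB3 down. HSPB3 forms a complex with HSPB2 in muscle. It had 222.3, 248.5 and 244.8 normalised counts in QHMM and 91.7, 40.3 and 104.5 in STH. All STH animals were below all QHMM animals. HSPB3 was down-regulated in STH (log2 fold change -1.59, SE 0.33, FDR 0.03). It lay between -1.84 and -1.30 with each library left out, and HSPB3 was called without any 1 of the STH libraries but not without any 1 of the QHMM libraries. HSPB2, its partner, had 605.9, 627.2 and 619.5 normalised counts in QHMM and 471.7, 217.3 and 672.5 in STH. The highest and the lowest values were both from STH, and the log2 fold change of -0.44 (SE 0.34, FDR 0.52) did not pass the test. The ratio of HSPB3 to HSPB2 in RPKM was 0.401, 0.433 and 0.432 for QHMM and 0.213, 0.203 and 0.170 for STH, and the breeds did not overlap in it. HSPB3 moved in the same direction as the slow fibre and adipocyte lists given above (medians -1.35 and -2.25). The 8 tested fast fibre genes and the 4 tested fibroblast markers were all negative as well (medians -0.33 and -0.68). The part of these lists in the result was not tested. In whole muscle, fewer cells or fibres of a type cannot be told apart from less RNA in each of them.

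CRYAB, or alpha B-crystallin, binds desmin and titin and had the highest RPKM of all members, 2479 ± 1875 (SD, n = 6). It had 13844, 6284 and 9826 normalised counts in QHMM, and STH had 32656, 7821 and 34961. STH 1 and STH 3 were high, while STH 2 lay within the QHMM range. With all animals its log2 fold change was 1.33 (SE 0.50, FDR 0.176). Without STH 2 it was 1.74, and CRYAB was then called (FDR 0.0463), in a range of FDR over the 19 alternatives of 0.031 to 0.578. HSPB7, which is found in heart and skeletal muscle and binds filamin C, was also high in STH 1 and STH 3. It had 117.8, 79.0 and 217.6 normalised counts in QHMM and 433.2, 214.1 and 823.7 in STH, where STH 2 was just below QHMM 3. Its log2 fold change of 1.82 was the highest of all tested members (SE 0.48, FDR 0.0667), and without STH 2 it was 2.17 with an FDR of 0.0338. Without STH 3 it was 1.23 and HSPB7 was not called (FDR 0.159). Over its 19 alternatives the FDR of HSPB7 lay between 0.00149 and 0.37.

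HSPB8, the partner of BAG3, had a log2 fold change of 0.51 (SE 0.28) and HSPB6, which acts in smooth and striated muscle, one of -0.26 (SE 0.39), and neither passed the test. HSPB11, a protein of the cilium in spite of its name, had at most 17.2 normalised counts in a library. CRYAB and HSPB2 are next to each other in RefSeq's sheep annotation, on opposite strands and without overlap. Their ratio in RPKM was 32.2, 14.1 and 22.3 in QHMM and 97.4, 50.6 and 73.2 in STH. Every STH animal had a higher ratio than every QHMM animal, including STH 2, in which both genes were low for the breed. How often other pairs of genes keep the breeds apart was not computed.

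The HSPA family had 0 of 13 tested members called, 10 of them with a negative log2 fold change and a median of -0.21. At an unadjusted p below 0.05 there were 4, namely HSPA1A, HSPA1L, HSPA2 and HSPA6, where 19.2% of all genes were. DESeq2 called 0 of the family, beside 6.85% of all genes. HSPA1A is the main stress-inducible HSP70. It had 41014, 7479 and 1718 normalised counts in QHMM and 1656, 3349 and 5749 in STH. QHMM 1 alone was 5.48 times the highest of the other 5 libraries, and the other QHMM animals lay above and within the range of STH. The log2 fold change of -2.22 (SE 0.88, FDR 0.2) became -0.38 (SE 0.60, FDR 0.814) without QHMM 1. HSPA6, a strictly inducible member, spread farthest of all. It had 19375, 807.2 and 12.1 normalised counts in QHMM and 185.9, 162.2 and 768.1 in STH, a span of 1603-fold with both ends in QHMM. Its log2 fold change was -4.18 (SE 1.64, FDR 0.195), and -0.16 (SE 1.09) without QHMM 1.

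HSPA8, the constitutive cytosolic HSP70, had 23486, 12738 and 8565 normalised counts in QHMM and 10864, 11129 and 17338 in STH. QHMM 1 was again the highest but by 1.35 times only, and the log2 fold change of -0.19 (SE 0.37, FDR 0.831) turned to 0.28 without it. The ratio of HSPA1A to HSPA8 in RPKM was 2.72, 0.913 and 0.312 in QHMM and 0.237, 0.468 and 0.516 in STH. By these rows alone, QHMM 1 was the only animal with more HSPA1A than HSPA8. Further rows that the authors matched to HSPA1A (HSP70.1) and to HSPA8 (LOC101114987) were not counted in this ratio. They had an RPKM of 207.9 and 256.6 in QHMM 2, so which gene was higher there is uncertain. HSPA5, the chaperone of the endoplasmic reticulum, and HSPA9, that of mitochondria, had log2 fold changes of -0.06 (SE 0.24) and 0.22 (SE 0.22). HSPA2, best known from the testis, was the only HSPA gene whose breeds did not overlap. It had 225.9, 243.9 and 293.1 normalised counts in QHMM and 175.2, 90.1 and 181.2 in STH (log2 fold change -0.77, SE 0.29, FDR 0.178).

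The high values of QHMM 1 were shared by a small set of members. QHMM 1 was at least 2 times as high as each of the other 5 libraries for HSPA1A, HSPA6, HSPA1L, HSPH1, DNAJA1, DNAJB1 and DNAJB4, a limit chosen after these values were seen. These 7 made 9.09% of the 77 tested members, beside 0.848% (106) of all genes tested. No member was at most 0.5 times the lowest other library in QHMM 1. DNAJB1, the J-domain partner of the inducible HSP70, had 12208, 1631 and 522.8 normalised counts in QHMM and 764.0, 680.6 and 1683 in STH. It was 7.25 times the next library in QHMM 1, while QHMM 2 and STH 3 were almost equal. HSPH1, the nucleotide exchange factor of the HSP110 class, had 1858, 369.3 and 279.0 in QHMM and 317.7, 660.4 and 510.2 in STH, and the factor was 2.81. DNAJB4, a close relative of DNAJB1, had 1534, 475.0 and 334.4 in QHMM and 723.1, 409.2 and 448.0 in STH, and the factor was 2.12.

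BAG3, the co-chaperone of filament clearance in muscle, had its highest value in the same animal. It had 9478, 3733 and 2718 normalised counts in QHMM and 3246, 3047 and 6378 in STH, which put QHMM 1 at 1.49 times STH 3. The log2 fold change of BAG3 was -0.33 (SE 0.46, FDR 0.745) with all animals and 0.37 (SE 0.37, FDR 0.692) without QHMM 1. Without that library, the log2 fold changes of HSPH1, DNAJB4 and DNAJA1 also changed sign, from -0.76 to 0.59, from -0.57 to 0.36 and from -0.91 to 1.19. That of DNAJB1 went from -2.20 to -0.07 and that of HSPA1L from -1.60 to -0.42. Each of these genes except BAG3 was picked above for its high value in QHMM 1. A shift upwards without that library follows from this choice and is no further result, also for HSPA1A and HSPA6. None of these genes was called with or without QHMM 1. In the other 5 libraries QHMM 2 and STH 3 were the highest for HSPA1A, HSPA6 and DNAJB1 alike. The lowest library was QHMM 3 for HSPA6 and DNAJB1, and STH 1 for HSPA1A, just below QHMM 3.

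The immediate-early genes respond within minutes to many stimuli. Summed over the 9 listed genes, their RPKM was 2848, 855.7 and 32.57 in QHMM and 2602, 678.3 and 966.9 in STH, so the sum was highest in QHMM 1 and lowest in QHMM 3. Single genes of the list did not all share this order, and EGR1 in normalised counts was highest in STH 1 and MYC in STH 2. STH 1 was almost as high as QHMM 1 in this sum. Of the members high in QHMM 1, STH 1 was the lowest library for HSPA1A (1656 normalised counts). It came next after QHMM 1 for DNAJB4 (723.1) and DNAJA1 (20.5). For HSPA6, DNAJB1, HSPH1 and HSPA1L it lay between other libraries. QHMM 1 also had the highest summed RPKM of the adipocyte markers and the highest number of reads. The part of the immediate-early genes, adipocyte markers and depth in the values of QHMM 1 was not tested.

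**Figure D3:**
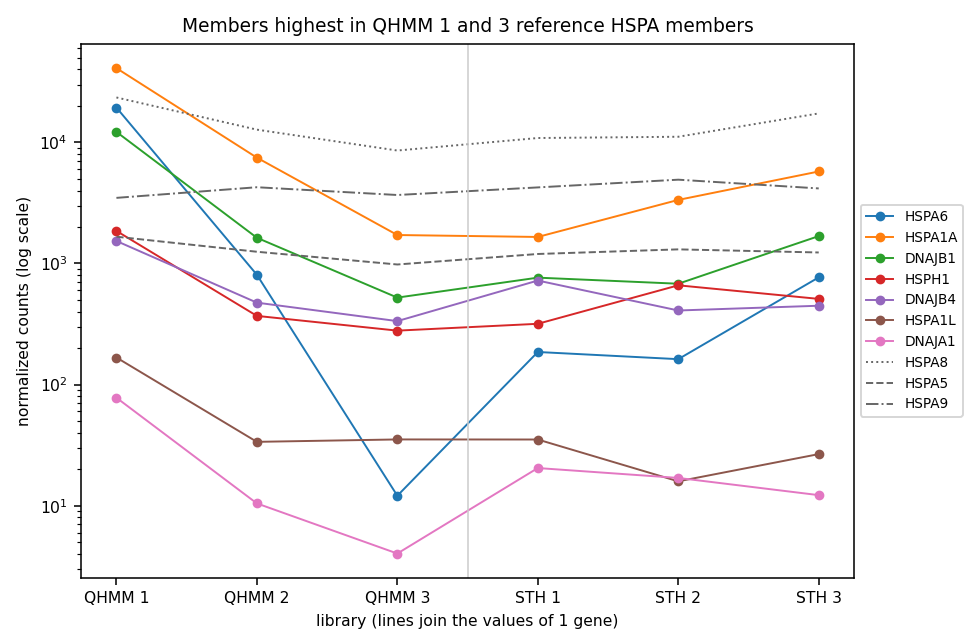
Normalised counts (y axis, log scale) by library (x axis) of the 7 members that were at least 2 times as high in QHMM 1 as elsewhere (solid lines), and of HSPA8, HSPA5 and HSPA9 (grey lines). QHMM 1 is the highest point of each solid line, and that of HSPA6 is at 12.1 in QHMM 3, while the grey lines stay within a factor of 2.74.

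Several of these values are uncertain, because near-identical or overlapping genes can share their reads. A row named HSP70.1, whose best match by the authors was HSPA1A, lay outside the rule and had 52696, 7662 and 1614 normalised counts in QHMM and 2463, 4006 and 10006 in STH. It showed the same order of the QHMM animals, and its log2 fold change was -1.91 (SE 0.96, FDR 0.309). HSPA1L overlaps HSPA1A in RefSeq's sheep annotation, and the table puts them on opposite strands. HSPA1L had 167.4, 33.7 and 35.3 normalised counts in QHMM and 35.2, 15.9 and 26.7 in STH, and whether the reads were counted by strand is not given in the sources used here. DNAJA1, a constitutive partner of HSPA8, had only 78.0, 10.5 and 4.03 in QHMM and 20.5, 17.0 and 12.2 in STH. Another row was matched to DNAJA1, and reads shared by copies were not kept if they had no unique position.

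The J-domain proteins were the largest group, with 42 members, of which 36 were tested and 1 was called. Their median log2 fold change was 0.06, with 20 positive and 16 negative values. An unadjusted p below 0.05 was found for 9 genes, where 19.2% of all genes were below it. DESeq2 called 3, beside 6.85% of all genes. DNAJC1, which spans the membrane of the endoplasmic reticulum and hands clients to HSPA5, had 59.4, 66.2 and 68.5 normalised counts in QHMM and 137.6, 214.1 and 118.9 in STH. The lowest STH animal was above the highest QHMM animal by a wide margin. Its up-regulation in STH was 1.28 on the log2 scale (SE 0.29, FDR 0.0406). Leaving out each library in turn, it was between 0.97 and 1.44, and it was called without STH 1 or STH 3 only. It was not called with RPKM values in place of counts.

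DNAJB9, a J-domain protein inside the same compartment that rises in the unfolded protein response, had 67.3, 43.0 and 59.4 normalised counts in QHMM and 76.2, 258.7 and 114.5 in STH. The breeds did not overlap, but STH 2 was 2.26 times the next library. The log2 fold change was 1.39 (SE 0.42, FDR 0.104), and 0.73 (SE 0.33, FDR 0.387) without STH 2. Without STH 1 it was 1.70, and DNAJB9 was then called (FDR 0.0356). DNAJA4, which is rich in striated muscle, had 691.8, 296.2 and 789.7 normalised counts in QHMM and 1738, 794.0 and 1604 in STH. STH 2 was only just above QHMM 3, and the log2 fold change of 1.22 (SE 0.39, FDR 0.115) did not pass the test. Over the 19 alternatives, the FDR lay between 0.0268 and 0.387 for DNAJB9 and between 0.0212 and 0.399 for DNAJA4, and each of these genes was called in 3.

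DNAJA3 and DNAJA2 had the highest RPKM of the DNAJA class. DNAJA3, the mitochondrial J-domain protein, had 1472, 2127 and 1726 normalised counts in QHMM and 1752, 2315 and 2121 in STH, with overlap (log2 fold change 0.22, SE 0.23). DNAJA2, a cytosolic partner of HSPA8, had 851.3, 725.9 and 1005 in QHMM and 1419, 1271 and 1337 in STH. The DNAJA2 values of the breeds did not overlap, and the log2 fold change of 0.64 (SE 0.21) had an FDR of 0.129. DNAJB5 came after DNAJB1 in its class, and had 1041, 1067 and 795.8 normalised counts in QHMM and 834.4, 437.8 and 1128 in STH. The value of STH 2 was the low one, and the log2 fold change of -0.27 (SE 0.31) was 0.00 without it.

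In the DNAJC class the highest RPKM belonged to DNAJC11, a protein of the mitochondrial cristae, and DNAJC19, a protein of the mitochondrial import motor. DNAJC11 had 1409, 1685 and 1331 normalised counts in QHMM and 1183, 1446 and 1505 in STH. DNAJC19 had 375.6, 305.4 and 279.0 in QHMM and 320.2, 276.7 and 284.6 in STH. Both overlapped between the breeds, with log2 fold changes of -0.10 (SE 0.22) and -0.12 (SE 0.21). Of the 24 tested members of the class, 8 kept the breeds apart, 3 of them higher and 5 lower in STH, where 24.7% of all genes did (13.0% higher and 11.7% lower). Beside DNAJC1, the log2 fold changes of this class lay between -0.82 for DNAJC28 and 0.66 for DNAJC18.

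By compartment, 12 members of the endoplasmic reticulum were tested, and 10 had a positive log2 fold change, with DNAJC1 as the only call and a median of 0.34. An unadjusted p below 0.05 was found for 3 of them, and DESeq2 called 2 (DNAJC1 and DNAJB9). The 9 tested members of mitochondria had 4 positive and 5 negative values, a median of -0.10 and 0 calls, with 2 at an unadjusted p below 0.05 and 0 called by DESeq2. A list of members of the heat shock response, which also took in constitutive forms such as HSPA8 and HSP90AB1 and left out HSPA6, had 8 positive and 8 negative values over 16 tested genes, a median of -0.09 and 0 calls. Of these 16, 6 had an unadjusted p below 0.05, and DESeq2 called 3 (CRYAB, HSPB1 and HSP90AB1). The list of small heat shock proteins and partners of BAG3 in muscle had 4 positive and 5 negative values over 9 tested genes, a median of -0.19, and HSPB3 as the only call. Of these 9, 4 had an unadjusted p below 0.05, and DESeq2 called 4. The median over all genes tested was 0.02, with 19.2% at an unadjusted p below 0.05 and 3.45% called. DESeq2 called 6.85% of all genes.

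HSP90 is made in the cytosol from 2 genes, HSP90AA1, the inducible form, and HSP90AB1, the constitutive form. HSP90AB1 had 8085, 6327 and 4569 normalised counts in QHMM and 10360, 14215 and 11058 in STH. The breeds did not overlap, and the log2 fold change of 0.91 (SE 0.28) missed the threshold with an FDR of 0.106. DESeq2 called it, and over the 19 alternatives the FDR lay between 0.0211 and 0.326. HSP90AA1 had 18062, 10994 and 10878 in QHMM and 18150, 15188 and 18704 in STH. QHMM 1 was as high as the STH animals, and the log2 fold change was 0.38 (SE 0.28, FDR 0.5). The ratio of HSP90AA1 to HSP90AB1 in RPKM was 1.96, 1.52 and 2.09 in QHMM and 1.53, 0.936 and 1.48 in STH, and STH 2 was the only animal with more of the constitutive form.

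All 8 tested subunits of TRiC had a positive log2 fold change, between 0.08 for TCP1 and 0.85 for CCT6A, and 0 passed the test. At an unadjusted p below 0.05 there were 5, where 19.2% of all genes were. DESeq2 called CCT6A, beside 6.85% of all genes. Their median was 0.55, and 5 of them kept the breeds apart with STH higher, where 13.0% of all genes did. CCT6A had 476.6, 340.3 and 408.0 normalised counts in QHMM and 644.5, 933.9 and 636.9 in STH. Its FDR was 0.0777 (SE 0.24), and between 0.0335 and 0.265 over the alternatives. CCT7, the subunit of the highest RPKM, had 2882, 2663 and 2485 in QHMM and 3280, 3548 and 3886 in STH. Both breeds were narrow and apart, and the log2 fold change was 0.42 (SE 0.22, FDR 0.324). CCT3, next to it in RPKM, had 2833, 2643 and 2061 in QHMM and 3135, 4022 and 4133 in STH, without overlap (log2 fold change 0.58, SE 0.24, FDR 0.211). CCT2 had 371.2, 296.2 and 325.4 in QHMM and 443.0, 862.9 and 448.0 in STH, where STH 2 alone was high (log2 fold change 0.82, SE 0.28, FDR 0.144).

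A ring of TRiC holds every subunit in equal number, but the transcripts were far from equal. The mean RPKM over 6 libraries was 126.3 for CCT7, 116.9 for CCT3, 54.3 for TCP1 and 49.4 for CCT5. It was 27.1 for CCT8, 21.5 for CCT6A, 18.7 for CCT2 and 11.8 for CCT4. Within a library, the highest subunit was between 8.75 and 14.9 times the lowest. Each of the 8 subunits kept its positive sign in all 19 alternatives, and since the subunits are measured in the same animals, they do not count as separate evidence. HSPD1, the mitochondrial HSP60 that also forms a ring, had 593.5, 286.9 and 304.2 normalised counts in QHMM and 493.0, 574.6 and 430.2 in STH. QHMM 1 was the highest animal, but by 1.03 times only, and the log2 fold change was 0.34 (SE 0.29, FDR 0.58). Another row matched to HSPD1 (LOC101119835) was highest in STH 2, with 474.9 against 465.9 in QHMM 1.

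**Figure D4:**
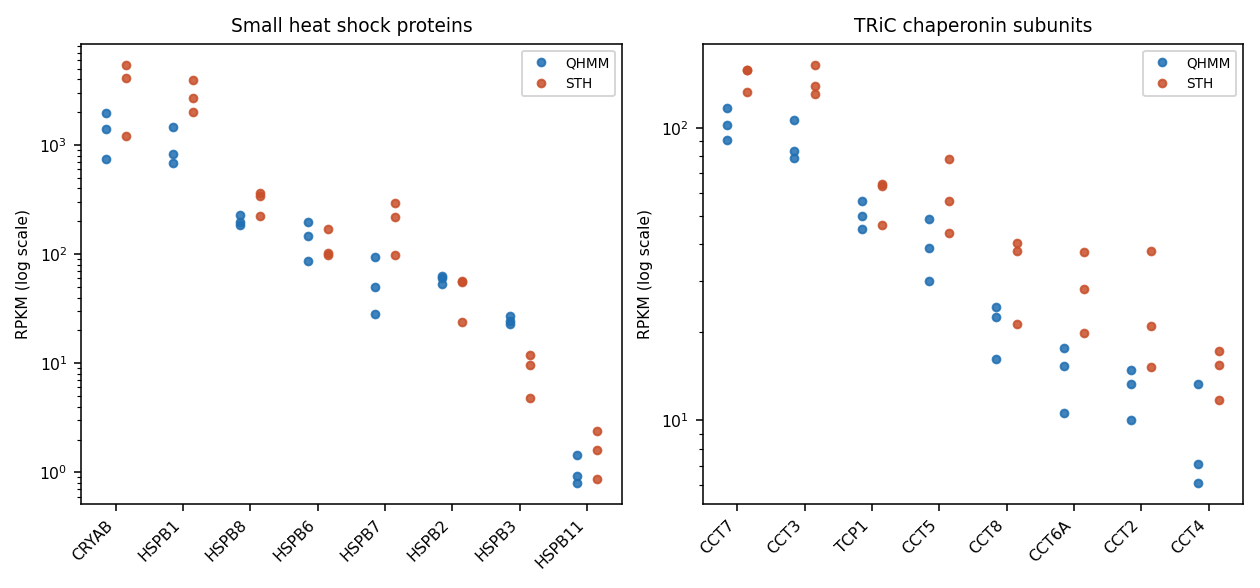
RPKM (y axis, log scale) of the 8 tested small heat shock proteins (left) and of the 8 tested TRiC subunits (right), 1 point per library, with QHMM in blue and STH in red, ordered by mean RPKM. The small proteins reach from 1.34 for HSPB11 to 2479 for CRYAB in mean RPKM, and the subunits from 11.8 for CCT4 to 126.3 for CCT7.

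The 5 BAG proteins had 0 calls, 0 genes at an unadjusted p below 0.05, 0 calls by DESeq2 and a median of 0.26. Of all genes tested, 19.2% had an unadjusted p below 0.05. BAG6, which guards membrane proteins in the cytosol, had 4027, 5535 and 4036 normalised counts in QHMM and 5412, 6721 and 7623 in STH. STH 1 was below QHMM 2, and the log2 fold change was 0.54 (SE 0.25, FDR 0.273). BAG3 takes over from BAG1 when clients are sent to autophagy in place of the proteasome. The ratio of BAG3 to BAG1 in RPKM was 13.8, 4.97 and 2.97 in QHMM and 4.05, 3.25 and 5.95 in STH, and QHMM 1 stood apart from the other 5 animals.

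Summed over all 85 members, the share of the reads on genes was 1.60%, 0.674% and 0.700% in QHMM and 1.36%, 1.06% and 1.29% in STH. QHMM 2 and QHMM 3 were low, while QHMM 1 was the highest of all. The small heat shock proteins took 0.260%, 0.137% and 0.193% in QHMM and 0.563%, 0.250% and 0.575% in STH, and the breeds overlapped by STH 2. The HSPA family took 0.718% in QHMM 1 and between 0.136% and 0.207% in the other 5 libraries. The HSP90 pair took 0.206%, 0.115% and 0.124% in QHMM and 0.266%, 0.253% and 0.198% in STH. The 95% Wilson intervals of these shares reached at most 0.00652 percentage points to each side, and they cover counting error only.

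**Figure D5:**
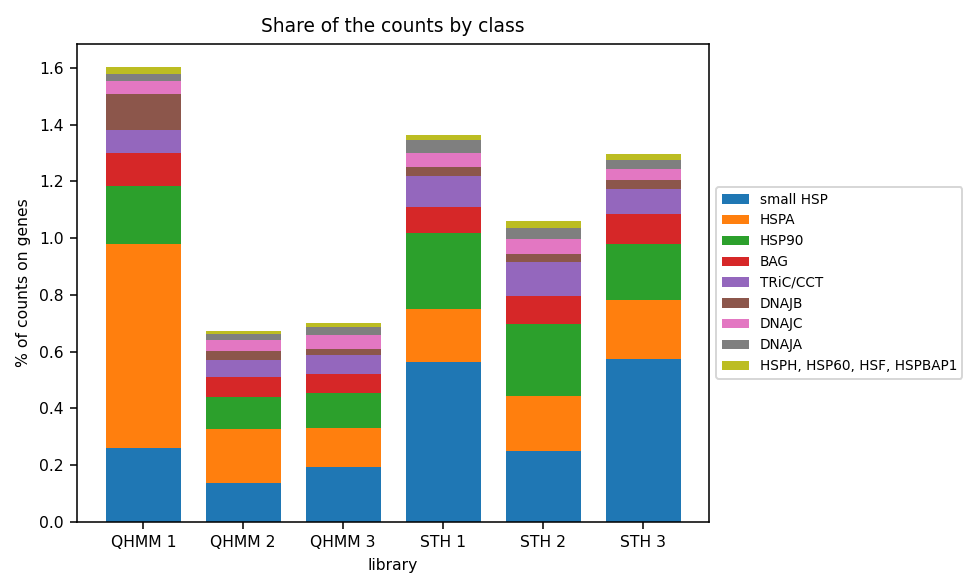
Share of the reads on genes (y axis, percent, from 0) taken by each class of members in each library (x axis). QHMM 1 is the tallest bar at 1.60% with 0.718% from the HSPA family, and the small heat shock proteins are the largest part of each STH bar except that of STH 2, where HSP90 takes 0.253% and they take 0.250%.

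The level was spread unevenly over the members. CRYAB and HSPB1 had a mean RPKM of 2479 and 1938 over the 6 libraries. HSP90AA1 came next with 417.6, followed by HSPA1A with 405.6, HSPA8 with 361.6, HSP90AB1 with 285.1 and HSPB8 with 256.4. CRYAB and HSPB1 differed by less than their SD, as did each neighbour in the order from HSP90AA1 to HSPB8, and the SD of HSPA1A (626.8) was above its mean, with QHMM 1 far from the rest. BAG3 had a mean RPKM of 140.1 ± 76.2 (SD, n = 6). From the lowest to the highest library, normalised counts differed by 1.18 times for TCP1 and DNAJC17, the steadiest members, and by a median of 2.07 times. STH 2 held the highest value of 21 tested members (27.3%, beside 22.8% of all genes) and STH 3 of 19 (24.7%, beside 16.9%). QHMM 1 held that of 18 (23.4%, beside 16.0%) and QHMM 3 of 10 (13.0%, beside 15.1%). STH 1 held that of 5 (6.49%, beside 13.4%) and QHMM 2 of 4 (5.19%, beside 15.8%). By the limit of 2 times used for QHMM 1, STH 2 was high for DNAJB9 (1.30% of the members, beside 0.888% of all genes) and low for HSPB2 and HSPB3 (2.60%, beside 2.18%). QHMM 2 was low for DNAJA4 (1.30%, beside 1.10%), QHMM 3 was low for HSPA6 and DNAJA1 (2.60%, beside 1.22%), and STH 3 was high for HSPB1 (1.30%, beside 0.224%).

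Too few reads were found on 8 members for a test. DNAJC22 and DNAJC5G had 0 reads in the 6 libraries, and DNAJB7, DNAJB13, DNAJC5B, DNAJC6 and CCT6B had at most 6 in a library. HSPB9, a small heat shock protein known from the testis, had 0 reads in each QHMM library and 2, 3 and 32 in STH. Most of its reads came from STH 3, and no fold change is given because QHMM was at the floor of 3 counts. HSPB9 was called up-regulated by DESeq2 and by edgeR without a filter on low counts. A further 14 rows carried other names but were matched by the authors to a symbol of these families. Of these, 9 were tested, and 0 were called by edgeR or by DESeq2. An unadjusted p below 0.05 was found for 0 of them, where 19.2% of all genes were below it. The main row matched to HSPE1, the HSP10 lid of the mitochondrial ring, had 718.4, 580.7 and 540.9 normalised counts in QHMM and 837.7, 789.8 and 731.4 in STH (log2 fold change 0.36, SE 0.20, FDR 0.375).

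Other genes of the chaperone pathways were read from a list of 46, of which 43 were in the table and were tested. FKBP5 was up-regulated in STH and the other 42 were not called, where 3.45% of all genes tested were called. The median log2 fold change was 0.07 over the list. Of the 43, 8 had an unadjusted p below 0.05, where 19.2% of all genes did. The breeds did not overlap for 10, where 24.7% of all genes kept them apart. FKBP5 is a co-chaperone of HSP90 in the complex of the glucocorticoid receptor, and its gene is a known target of that receptor. It had 115.2, 456.4 and 251.8 normalised counts in QHMM and 3806, 7860 and 6283 in STH. The lowest STH animal was far above the highest QHMM animal. This difference was 4.45 on the log2 scale (SE 0.50, FDR 0.00345), it stayed between 4.06 and 5.03 over the 19 alternatives, and FKBP5 was called in each of them. No member of the heat shock families came near this size upwards, where HSPB7 was the highest with 1.82.

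The next genes of that list by p did not pass the test. SUGT1, a co-chaperone of HSP90 at the kinetochore, had 162.1, 183.5 and 203.5 normalised counts in QHMM and 248.9, 349.8 and 327.9 in STH (log2 fold change 0.75, SE 0.23, FDR 0.103). SERPINH1, the collagen chaperone HSP47, had 3239, 1800 and 1399 in QHMM and 1104, 539.6 and 1368 in STH. The breeds were only just apart (log2 fold change -1.10, SE 0.38, FDR 0.15). QHMM 1 was 1.80 times the next library, and without it the log2 fold change was -0.69 (SE 0.37, FDR 0.402). HSF4, a heat shock factor of the lens, had 93.0, 147.5 and 95.7 in QHMM and 189.2, 206.7 and 153.4 in STH (log2 fold change 0.71, SE 0.27, FDR 0.177). HSP90B1, the HSP90 of the endoplasmic reticulum, and TRAP1, that of mitochondria, had log2 fold changes of 0.14 (SE 0.24) and 0.46 (SE 0.24). The log2 fold changes of STIP1, which joins HSP70 to HSP90, and of UNC45B, the myosin chaperone of muscle, were 0.20 (SE 0.27) and 0.01 (SE 0.26).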

How the data were processed

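Reads from an Ion Proton instrument were filtered and mapped to the sheep genome (Oar 3.1) by the authors, who kept reads with a unique position and deposited the number on each gene as counts without normalization. The RPKM values deposited by the authors scale these counts by gene length and library total. The aligner, the counting program and the use of strand are not given in the sources used here. All 12 columns of single libraries (6 of counts, 6 of RPKM) were used. Columns of gene descriptions and of the best BLAST match were used for names only.

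Genes were tested on counts with edgeR 4.0.16 in R 4.3.3 (TMM factors, low counts removed by filterByExpr, and the quasi-likelihood F test for breed with no other covariate). FDR is the Benjamini-Hochberg value over 12506 genes. The limits for a call (FDR 0.05, and 0.585 for the size on the log2 scale) are those of the study's methods, where EBSeq was the program. SDs are over the libraries of a breed (n = 3) unless n = 6 is given. Alternatives were DESeq2 1.42.0, other normalizations, filters and limits, limma-trend (limma 3.58.1) on RPKM, a replicate block, and fits without libraries. All members could be named. Values of every library were given for members that were called or had an unadjusted p below 0.01, for the 2 of highest RPKM in each class, for HSF1 and CRYAB, and for others where the text turns on them. The members and gene lists were chosen with earlier results of these data known. Ratios were taken for chosen pairs only, without the share of other pairs that keep the breeds apart. For a called gene, such a ratio uses the same reads as the call. RefSeq's annotation (ARS-UI_Ramb, version 3.0) held 82 of the 85 symbols and was used for names and neighbours only. Sequences were not analysed here. The deviations of same-numbered animals had correlations of 0.222, -0.034 and -0.125. These lay within the range of the pairs with unequal numbers, from -0.26 to 0.278, the highest being QHMM 2 with STH 3. The numbers were therefore not taken as pairs.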

Additional observations from a re-analysis of the deposited data

How the results depend on the processing

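The number of called members was 4 with upper-quartile normalization, with at least 10 counts in every library, with robust dispersions, without the 20 most abundant genes and with no minimum fold change, and 3 with limma-trend on log2(RPKM + 1) or log2(RPKM + 0.1). It was 12 with DESeq2, 9 with no filter on low counts, and 0 with limma-trend on every gene above 0, without QHMM replicate 2 and STH replicate 3 together, and at an FDR of 0.01. The share of all genes called moved too. It was 6.85% with DESeq2 and 4.56% with no filter. For the 3 settings with 0 just named it was 0.442%, 0.0864% and 0.328%. In the settings with 4 called members it lay between 3.25% and 3.95%, and it was 3.11% and 2.94% with limma-trend at the 2 pseudocounts. When each library was left out in turn, between 0 and 5 members were called, beside 1.03% to 4.21% of all genes. The number of classes with a called member, 4 in the main test, was 8 with DESeq2, 2 with limma-trend at both pseudocounts, 0 with limma-trend on every gene above 0, 0 without QHMM replicate 2 and STH replicate 3 together, 0 at an FDR of 0.01, and between 0 and 5 with each library left out. The other chaperone genes called were 2 with DESeq2 (FKBP5 and SERPINH1) and 1 in the other alternatives. With the replicate number as a block, 5 members were called (6.49%, beside 3.65% of all genes). DNAJA4 and HSPB7 were then called and DNAJC1 was not. The labels do not say that equal numbers mark a pair, so this says nothing on the size of an effect.

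Without QHMM replicate 1 the log2 fold change reversed to 0.37 for BAG3, 1.19 for DNAJA1, 0.36 for DNAJB4, 0.28 for HSPA8 and 0.59 for HSPH1. With each library left out the ranges were -0.75 to 0.37, -1.42 to 1.19, -0.93 to 0.36, -0.46 to 0.28 and -1.17 to 0.59. DNAJB5 reached 0.00 without STH replicate 2, in a range from -0.60. DNAJC11 lay between -0.17 and 0.01, and DNAJC11 and HSPA8 were at 0.02 in the 3 fits on RPKM. The median over all genes was 0.12 with log2(RPKM + 1) and 0.02 in the main test. The causes of these differences were not tested. Over 44 named genes and 19 alternatives, 767 values kept direction and side of the threshold, 19 became called, 33 lost the call and 13 reversed. The 8 untested members had too few reads for a test at this depth, and with 3 animals per breed a gene that missed the threshold is not shown to be equal in both.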
